A study of Homo sapiens with 9 samples.

Results

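The cells described here were the common hypoblast-like cells of human extra-embryoids (hEEs), structures that form when human embryonic stem cells aggregate in microwells and sort themselves into an inner and an outer compartment. They were chosen by the counts of 12 genes, and 3330 of the 19248 cells that passed the filters were members. The cells came from the embryonic stem cell line ESI017, and the groups were hEEs collected on day 4 (D4) and day 6 (D6) of culture. They differentiated spontaneously in 3D culture, and the labels name no treatment or genetic change that sets a group apart. The stem cells had been grown on inactivated CF-1 mouse embryonic fibroblasts, which were depleted on gelatin before aggregation, and aggregates were picked for showing both compartments. Several wells were pooled into 1 library of single-cell RNA sequencing for each day, so there were no replicates, no test between days was possible, and day cannot be told apart from library. Brackets hold 95% intervals, which cover counting error and nothing else.

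A cell was kept when it had 3430 to 27500 unique molecular identifiers (UMIs, which count captured transcript molecules) and no more than 10% of them from mitochondrially encoded genes. A member had at least 3 UMIs of FN1, which encodes fibronectin, no UMI of SOX2, no more than 5 of POU5F1 and no UMI of ISL1. It had no more than 1 UMI of CER1, of NPPB, of FGFBP3, of APOA4 with LCN15, and of GYPE with GYPB and RIPPLY1. The files held 10943 barcodes at D4 and 11483 at D6, of which 9151 and 10097 were kept. There were 2064 members at D4, or 22.6% [21.7, 23.4] of the cells kept that day. At D6 there were 1266, or 12.5% [11.9, 13.2]. Because the limits were set on measured counts, the level of these 12 genes in members is a description of the choice. Epiblast-like cells, with at least 5 UMIs of POU5F1, at least 1 of SOX2 and no more than 2 of FN1, were used as the other lineage of the same libraries. They numbered 3716 at D4 and 5054 at D6.

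The hypoblast, or primitive endoderm, is the extra-embryonic endoderm that lines the epiblast and gives rise to the visceral endoderm and the yolk sac. GATA6, GATA4, SOX17 and FOXA2 are its transcription factors, it deposits the basement membrane against which the epiblast polarises, and it sends signals and antagonists of the NODAL, BMP and WNT pathways to the epiblast. Before the liver forms, yolk sac endoderm makes the apolipoproteins that carry lipid and other plasma proteins of the conceptus.

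Members were shallower than epiblast-like cells, with median depths of 10419.5 UMIs at D4 and 10621 at D6 against 15157.5 and 14225.5. Their summed depth was 22391397 UMIs at D4 and 14189243 at D6. Levels below are UMIs of a gene summed over the cells of a group in 1 library, per 1000000 UMIs of that group (CPM). These are 3′ counts, so transcript length does not enter them. Mitochondrially encoded genes took 3.77% of member UMIs at D4 and 2.48% at D6, and 3.95% and 2.58% in epiblast-like cells. Ribosomal protein genes took 20.3% and 17.8% in members, and 23.8% and 25.8% in epiblast-like cells. The counts of genes that differed between the days are given below with these genes in the total and without them. The 2 libraries shared 27 cell barcodes among kept cells, and no member of D4 shared a barcode with a member of D6.

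Members were a smaller share of the cells at D6 than at D4. Cells that met the FN1, SOX2 and POU5F1 limits alone were 44.4% of all cells that passed the filters at D4, and 35.3% at D6. The limit on APOA4 and LCN15, genes of the absorptive endoderm, set aside 375 of these cells at D4 and 1905 at D6. The ISL1 limit set aside 957 and 203 cells, the CER1 limit 558 and 116, and the NPPB limit 475 and 489. At the FN1 limit, the 155 D4 members with 3 UMIs had 1314 CPM of APOA1 and 77.9 CPM of GATA6. The 118 D4 cells with 2 FN1 UMIs that met every other limit had 1488 and 93.8 CPM. At D6 the 103 members with 3 FN1 UMIs had 8581 CPM of APOA1, and the 84 cells with 2 had 8794. GATA6 was at 307 and 252 CPM in the same D6 cells, and GATA4 at 89.0 and 64.8 CPM. At D4 GATA4 was at 65.4 CPM with 3 FN1 UMIs and 77.9 CPM with 2. The cells on either side of the FN1 limit thus had similar levels of APOA1. GATA4 and GATA6 were higher inside the limit at D6 and lower inside it at D4.

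The markers of the hypoblast were present in members on both days. GATA4 (ENSG00000136574) was at 71.99 CPM in D4 members and 89.6 CPM in D6 members, against 1.28 and 1.04 CPM in epiblast-like cells. SOX17 was at 88.3 CPM at D4 and 100 CPM at D6, against 11.3 and 13.7 CPM. The ratio between the lineages was larger than that of SOX17 for FOXA2, a pioneer factor of endoderm, which was at 123 and 154 CPM in members and at 3.36 and 1.28 CPM in epiblast-like cells. FN1, which the rule used, was at 953 and 1016 CPM in members. To compare shares of cells across depths, each cell was also thinned at random to 3430 UMIs. After thinning, APOA1 was seen in 86.8% of D4 members and 99.1% of D6 members, and in 5.41% and 20.5% of epiblast-like cells. GATA6 was seen in 27.0% and 55.3% of members, against 0.457% and 0.712%, and SOX17 in 24.6% and 27.7%, against 3.77% and 4.81%. Free RNA in the droplets can place such UMIs in cells that do not express a gene, and the values in epiblast-like cells are given for comparison. No estimate of free RNA was made here, so free RNA and expression in epiblast-like cells cannot be told apart.

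**Figure D1:**
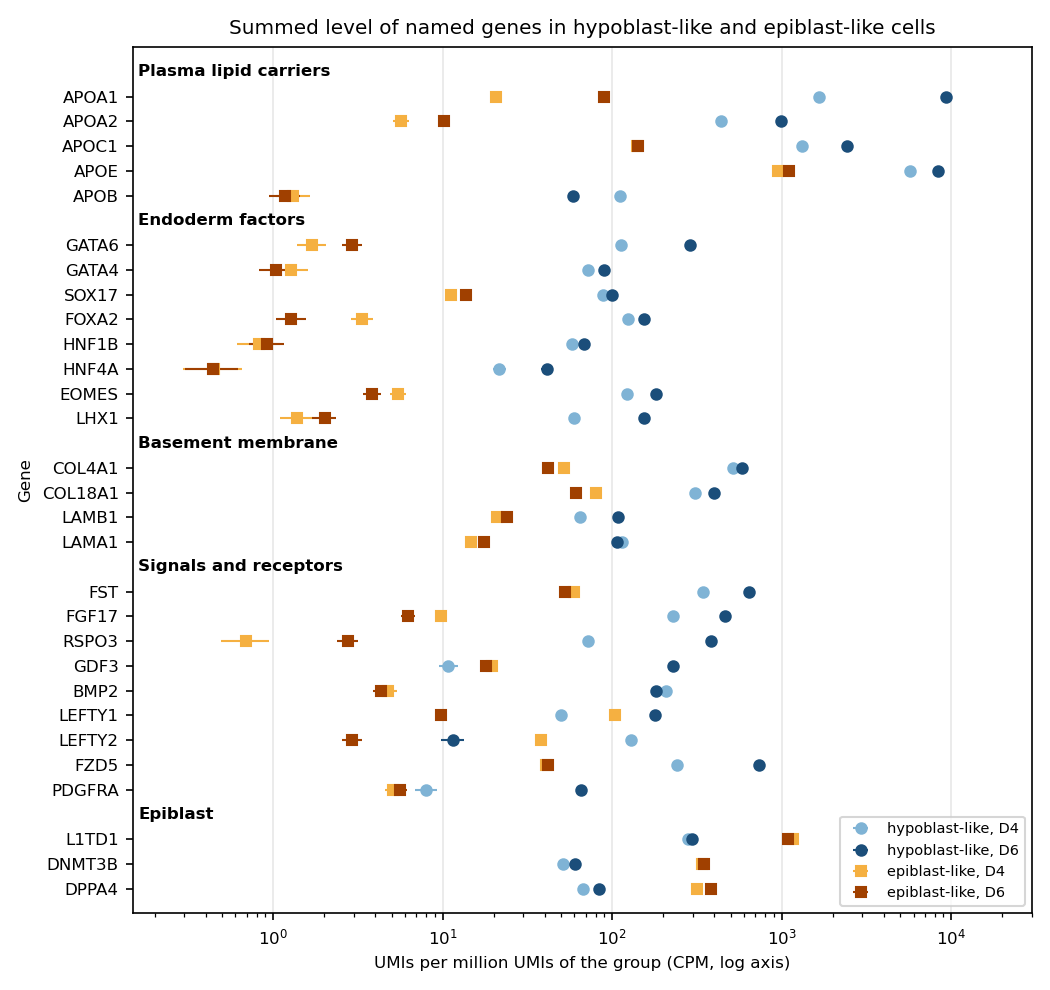
Level of named genes, in CPM on a log axis, in hypoblast-like members (circles) and epiblast-like cells (squares) at D4 (light) and D6 (dark), with exact Poisson intervals that cover counting error only. APOA1 moved from 1671 CPM at D4 to 9296 CPM at D6 in members, while GATA4, at 71.99 and 89.6 CPM, and COL4A1, at 519 and 583 CPM, differed much less between the days.

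Of the 18 genes of an epiblast list, all of which reached 10 UMIs, 13 were lower in members than in epiblast-like cells by 2-fold or more on each day, and 1 was higher by as much at D4 and 2 at D6. Among all genes with as many UMIs, 16.4% were lower by that much at D4 and 20.8% at D6, and 14.1% and 14.0% were higher. Among genes at 10 CPM or more in either group, 7.40% and 9.92% were lower, and 11.0% and 12.9% higher. This contrast is the one that the rule drew, so nothing is read from those counts. DNMT3B, a de novo DNA methyltransferase, was at 51.1 CPM in D4 members and 60.8 CPM in D6 members, against 339 and 349 CPM in epiblast-like cells. UTF1 was at 1.12 and 2.26 CPM against 67.7 and 75.3 CPM. PODXL, a sialomucin of apical membranes that stands on the same list, was higher in members, at 382 and 739 CPM, than in epiblast-like cells, at 189 and 231 CPM. The genes with the largest ratio of members over epiblast-like cells included RSPO3 and APOB at D4, 104-fold and 84.5-fold, and CST2 and FOXA2 at D6, 142-fold and 120-fold.

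Markers of other cell types were read in the same way. Of 16 trophoblast genes, 10 were at 0 in D4 members and 12 in D6 members, among them GCM1, ERVFRD-1, TP63 and VGLL1. The summed trophoblast level of 229 CPM at D4 and 223 CPM at D6 was nearly all GATA3, a factor of trophoblast and amnion, which was at 227 and 219 CPM. Of the other 9 amnion markers, MSX2 was at 56.0 CPM at D4 and 87.4 CPM at D6 and the ligand BMP4 at 10.1 and 15.4 CPM, and the summed level of the list was 297 and 323 CPM. TFAP2A was at 0.581 and 0.423 CPM, and TFAP2B and VTCN1 were at 0 on both days. The 12 genes of blood and endothelium summed to 3.13 CPM at D4 and 7.82 CPM at D6, with RUNX1 the most abundant and HBZ, HBA1, HBA2 and TAL1 at 0 on both days.

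Fibroblast genes marked out a few D4 members. Of the 2064 D4 members, 31 (1.5% [1.02, 2.13]) had 10 or more UMIs of S100A6, a calcium-binding protein gene singled out after its values were seen. Only 2 members had 2 to 9 UMIs of it, 42 had 1 and 1989 had none, and none of the 10097 kept D6 cells reached 10. In these 31 cells COL1A1, the main chain of type I collagen, was at 3195 CPM, against 14.1 CPM in the other D4 members, and COL1A2 was at 1879 CPM against 0.540. GATA4 was at 16.1 CPM against 72.5, SOX17 at 21.5 against 88.9, FOXA2 at 10.7 against 124, and APOA1 at 639 against 1680. They were shallow, with a median of 4986 UMIs against 10458, and held 0.832% of member UMIs at D4. GATA6 was at 80.5 CPM [45.1, 133] in the 31 cells, an interval that holds the 113 CPM of the other D4 members. The 31 cells met the rule with FN1 at 1326 CPM. The hypoblast label is not borne out for them by GATA4, SOX17 and FOXA2, while GATA6 did not set them apart from other members. The stem cells had been grown on mouse fibroblasts and the submitters' notes name a human genome build, so the CPM values of these cells assume human reads, and their species was not tested. Where leaving these cells out moved a gene of a list across the 2-fold line, the value without them is given.

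Between D4 and D6, 214 genes were at least 2-fold higher in D6 members and 72 at least 2-fold lower. These were 2.41% and 0.812% of the 8865 genes that were at 10 CPM or more on at least 1 of the days, and such genes are called higher or lower in what follows. The median log2 ratio over all 8865 genes was 0.02. The count of lower genes was 112 when mitochondrial and ribosomal genes were left out of the total and 128 when members were chosen after thinning, and the count of higher genes was 214 and 228. In epiblast-like cells of the same libraries, 0.276% of 8692 genes were higher at D6 and 0.322% were lower, with a median log2 ratio of 0.03. The log2 ratio of D6 over D4 was larger in members than in epiblast-like cells by 1 or more for 2.18% of 9671 genes, and smaller by as much for 1.41%. These were 211 and 136 genes, and the counts were 354 and 273 when members were chosen after thinning. The count of smaller ones was 209 with thinning alone and 248 without mitochondrial and ribosomal genes in the total. Leaving out the 31 cells with S100A6 left 216 genes higher and 64 lower. Gene lists were read over genes with at least 10 UMIs over both days, with 0.5 UMIs added, and at the same 2-fold line. Of all 17021 genes with that many UMIs, 5.56% were higher at D6, 4.79% were lower, and the median log2 ratio was 0.02.

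**Figure D2:**
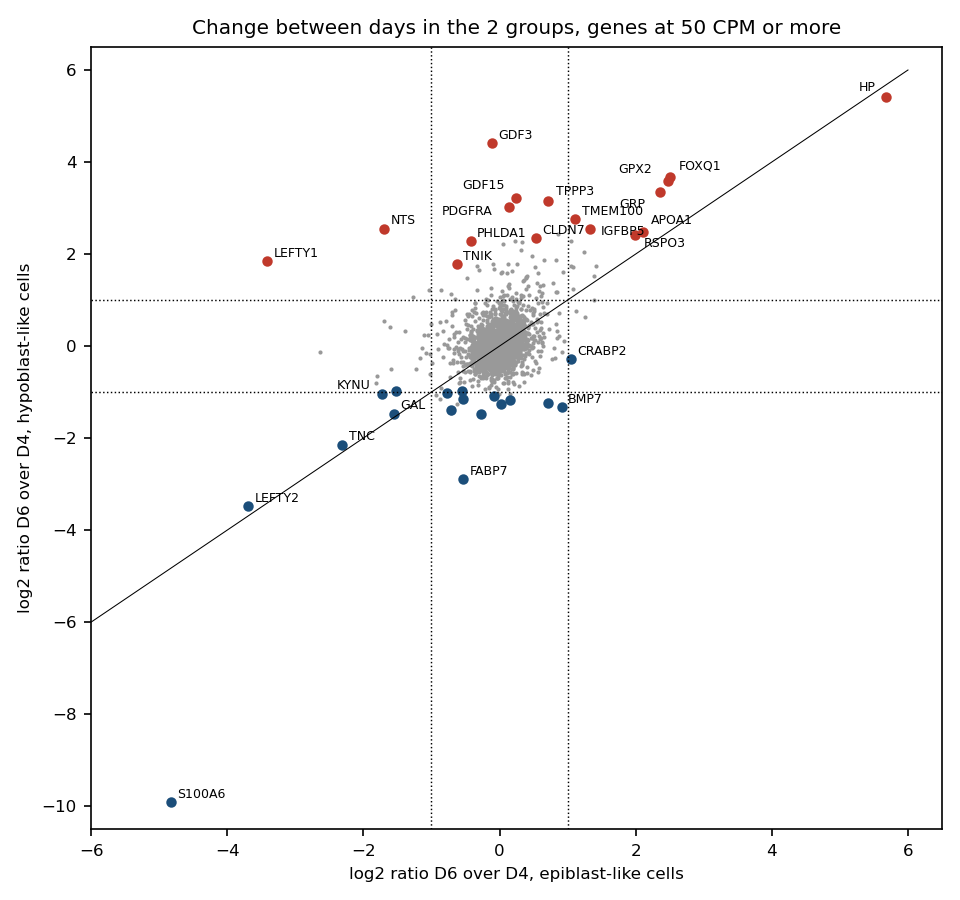
Log2 ratio of D6 over D4 in hypoblast-like members against the same ratio in epiblast-like cells, for genes at 50 CPM or more in at least 1 of the 4 groups. Grey points are genes, red and blue points are the genes named as most changed, dotted lines mark 2-fold and the diagonal marks equal ratios. LEFTY1 and NTS lie in the upper left, with ratios of 1.86 and 2.55 in members and of −3.41 and −1.69 in epiblast-like cells.

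Among genes at 50 CPM or more on the higher day, HP had the widest ratio of D6 over D4. HP, which encodes the haemoglobin-binding plasma protein haptoglobin, was at 1.43 CPM at D4 and 61.0 CPM at D6, a log2 ratio of 5.41 [4.91, 5.97]. After it came GDF3 at 4.40 and FOXQ1, a forkhead transcription factor, at 3.66 [3.52, 3.81], from 19.1 to 242 CPM. GPX2, a glutathione peroxidase, went from 14.9 to 178 CPM, GRP, a neuropeptide, from 13.5 to 138 CPM, and GDF15, a stress-induced cytokine, from 7.95 to 74.4 CPM. The remaining 9 of the first 15 at that level were TPPP3, PDGFRA, TMEM100, NTS, IGFBP5, APOA1, RSPO3, CLDN7 and PHLDA1, the last at a log2 ratio of 2.29. In epiblast-like cells GDF15 was at 1.92 and 2.27 CPM and PDGFRA at 5.12 and 5.63 CPM, log2 ratios of 0.24 and 0.14. HP, FOXQ1, GPX2, GRP, APOA1 and RSPO3 had log2 ratios of 1.99 to 5.67 in epiblast-like cells, with levels from 0.398 and 2.26 CPM for FOXQ1 to 20.8 and 89.6 CPM for APOA1. The part of free RNA from members in those levels was not tested.

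Among the genes past 2-fold between the days, APOA1 was the most abundant at D6. APOA1 (ENSG00000118137, chr11:116835751-116837622 in GRCh38), the main protein of high-density lipoprotein, was at 1671 CPM in D4 members and 9296 CPM in D6 members, a log2 ratio of 2.48 [2.46, 2.49]. At D6 it was the second most abundant gene that was neither mitochondrial nor ribosomal, after the ferritin chain gene FTH1 at 14037 CPM. In epiblast-like cells APOA1 was at 20.8 and 89.6 CPM, so the ratio of members over epiblast-like cells was 80.4-fold at D4 and 104-fold at D6. APOA2, its partner in high-density lipoprotein, was at 439 and 986 CPM, a log2 ratio of 1.17 [1.13, 1.20]. APOE, which carries lipid to receptors, was at 5687 and 8397 CPM, 0.56 on the log2 scale, and its neighbour APOC1 was at 1317 and 2442 CPM, 0.89 [0.87, 0.91]. APOB, the structural protein of low-density lipoprotein, went the other way, from 111 CPM at D4 to 58.9 CPM at D6, a log2 ratio of −0.92 [−1.03, −0.80]. With the FN1, SOX2 and POU5F1 limits alone, APOB went from 106 to 79.3 CPM, a log2 ratio of −0.42. MTTP, the transfer protein that loads APOB with lipid, had 31 UMIs at D4 and 98 at D6. Of the 9 measured genes on the apolipoprotein list, 5 were higher and none lower, with a median log2 ratio of 1.17. With the FN1, SOX2 and POU5F1 limits alone, 6 of 10 were higher and none lower, and the median was 2.16. The cells set aside by the limit on APOA4 with LCN15 had more APOA1, APOC3 and APOB than members at D6, so the levels of these genes in members depend on the choice.

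Of the 14 measured genes of plasma proteins made by liver and yolk sac, 8 were higher at D6, 6 passed neither line and none was lower, and the median log2 ratio was 1.07. FGB, the fibrinogen beta chain, was at 1.88 CPM at D4 and 36.1 CPM at D6, a log2 ratio of 4.27 [3.81, 4.76], and after thinning it was seen in 0.678% and 5.53% of members, against 0.0269% and 0.119% of epiblast-like cells. F10, coagulation factor X, was at 42.8 and 92.6 CPM, 1.11 [0.99, 1.24]. TTR, the carrier of thyroid hormone, was at 3.04 and 8.32 CPM, 1.45 on the log2 scale. VTN, which encodes vitronectin, was at 21.9 and 22.3 CPM, a log2 ratio of 0.03 [−0.18, 0.24]. SERPINA1, the abundant protease inhibitor of liver, was at 0 on both days, which allows up to 0.134 CPM at D4 and 0.211 CPM at D6. AFP, a marker of mature yolk sac endoderm, had 7 UMIs in D4 members and 38 in D6 members, or 3.10 [1.92, 4.51] on the log2 scale. After thinning it was seen in 0.0484% of D4 members and 0.474% of D6 members, against 1.37% and 0.594% of epiblast-like cells, so it was not above the epiblast-like share on either day. Cells with APOA4 or LCN15, which the rule set aside, held more AFP at D6. With the FN1, SOX2 and POU5F1 limits alone, the log2 ratio of AFP was 5.34, that of TTR 2.12 and that of FGB 4.9. VTN then went from 22.5 to 33.2 CPM, a log2 ratio of 0.56. Under those limits 12 of 19 measured genes of the list were higher and 1 lower, with a median of 1.28. Few of these genes passed 10 CPM, so the list rests on small numbers of UMIs.

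The apolipoprotein and ligand genes are shown with their promoters where RefSeq (GRCh38.p14) gives a single window of 250 bases before and 50 after the start. Of 8 genes picked by their level, 5 had such a window, and 2 of these are printed, an abundant apolipoprotein and the ligand with the widest ratio between days, because both hold the letters of GATA sites. The windows were searched on both strands for AGATAA (bound by GATA factors), TGTTTAC (FOXA factors), GTTAAT (HNF1 factors), CAAAGT (HNF4 factors) and TATAAA (the TATA box). Capitals mark the matches. The APOA2 window is chr1:161223579-161223878 and the GDF3 window chr12:7695726-7696025, both on the minus strand.
APOA2: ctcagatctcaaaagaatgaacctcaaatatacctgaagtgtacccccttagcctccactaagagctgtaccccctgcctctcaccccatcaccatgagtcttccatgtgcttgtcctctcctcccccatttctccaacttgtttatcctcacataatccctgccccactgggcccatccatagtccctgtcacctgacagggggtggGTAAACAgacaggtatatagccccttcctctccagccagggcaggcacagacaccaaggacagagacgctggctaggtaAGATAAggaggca
GDF3: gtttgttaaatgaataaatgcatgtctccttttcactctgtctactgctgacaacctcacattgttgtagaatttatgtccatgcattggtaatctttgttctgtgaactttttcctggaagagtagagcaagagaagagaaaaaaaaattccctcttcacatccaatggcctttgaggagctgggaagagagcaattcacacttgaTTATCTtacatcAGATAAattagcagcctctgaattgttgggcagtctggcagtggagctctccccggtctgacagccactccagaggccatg
The APOA2 window held TGTTTAC on the opposite strand at −42 from the start and AGATAA at 38, downstream of it. The GDF3 window held AGATAA at −31 and again on the opposite strand at −43. Of 35116 promoter windows, 10.3% held AGATAA, 3.42% TGTTTAC, 6.88% GTTAAT, 11.9% CAAAGT and 11.5% TATAAA on either strand. The windows of APOC1 and RSPO3 held none of these letters, and that of FOXQ1 held CAAAGT alone. A match is a run of letters and does not show binding.

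Among the transcription factors of the endoderm, GATA6 and LHX1 were higher at D6, LHX1 by 0.99 on the log2 scale when the FN1, SOX2 and POU5F1 limits alone chose the cells. GATA6 (ENSG00000141448), which starts the hypoblast programme, was at 112 CPM in D4 members and 289 CPM in D6 members, a log2 ratio of 1.36 [1.29, 1.44]. LHX1, a LIM homeobox factor of visceral endoderm, was at 59.7 and 154 CPM, 1.37 [1.27, 1.47]. HNF4A, a nuclear receptor that drives apolipoprotein genes in liver, was at 21.6 and 41.3 CPM, 0.93 [0.76, 1.11]. With the FN1, SOX2 and POU5F1 limits alone HNF4A passed 2-fold, at 21.2 and 45.9 CPM, 1.12 on the log2 scale. Under those limits 3 of 21 factors were higher, GATA6, HNF4A and TFEC, the last at 0.335 CPM at D6, and NR2F2 was lower. GATA4 and FOXA2 each had a log2 ratio of 0.32, and SOX17 had 0.18 [0.08, 0.28]. EOMES was at 123 and 182 CPM, and PRDM1, a repressor of the somatic programme, at 104 and 80.1 CPM. Of the 19 measured factors, 2 were higher, 2 were lower and 15 passed neither line, with a median of 0.18. The 2 lower ones, NR2F1 and NR2F2, were under 3 CPM on both days. The 31 cells held 36 of the 64 UMIs of NR2F2 at D4, and its log2 ratio was −0.58 [−1.69, 0.45] without them. NR2F1 had 10 UMIs at D4, 3 of them in the 31 cells, and without those it fell short of the 10 UMIs needed for a list, with a log2 ratio of −1.68 in place of −2.15. GATA6 was thus 2.57-fold higher while its relative GATA4 was 1.24-fold higher.

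Basement membrane genes did not differ by 2-fold. None of the 24 measured genes was higher or lower at D6 and their median log2 ratio was 0.04, close to that of all genes. COL4A1, a chain of type IV collagen, was at 519 and 583 CPM in members, against 52.2 and 41.8 CPM in epiblast-like cells. LAMB1, a laminin chain, was at 64.6 and 108 CPM, 0.75 [0.64, 0.85], and COL4A6 was at 190 and 119 CPM, −0.68 [−0.76, −0.60]. Against epiblast-like cells, the contrast that the rule drew, 11 of the 24 genes were at least 2-fold higher at D4 and 12 at D6, and 1 was lower on each day, where 14.1% and 14.0% of all genes were higher. This holds for the genes of this list, and other matrix genes, such as TNC, passed 2-fold. Of 16 genes of endocytic uptake, 4 were higher and none lower. These were CUBN and AMN, which form the receptor for intrinsic factor and APOA1, the large receptor LRP2, at 5.00 and 15.1 CPM, and the folate receptor FOLR1, at 34.4 and 77.0 CPM.

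**Figure D3:**
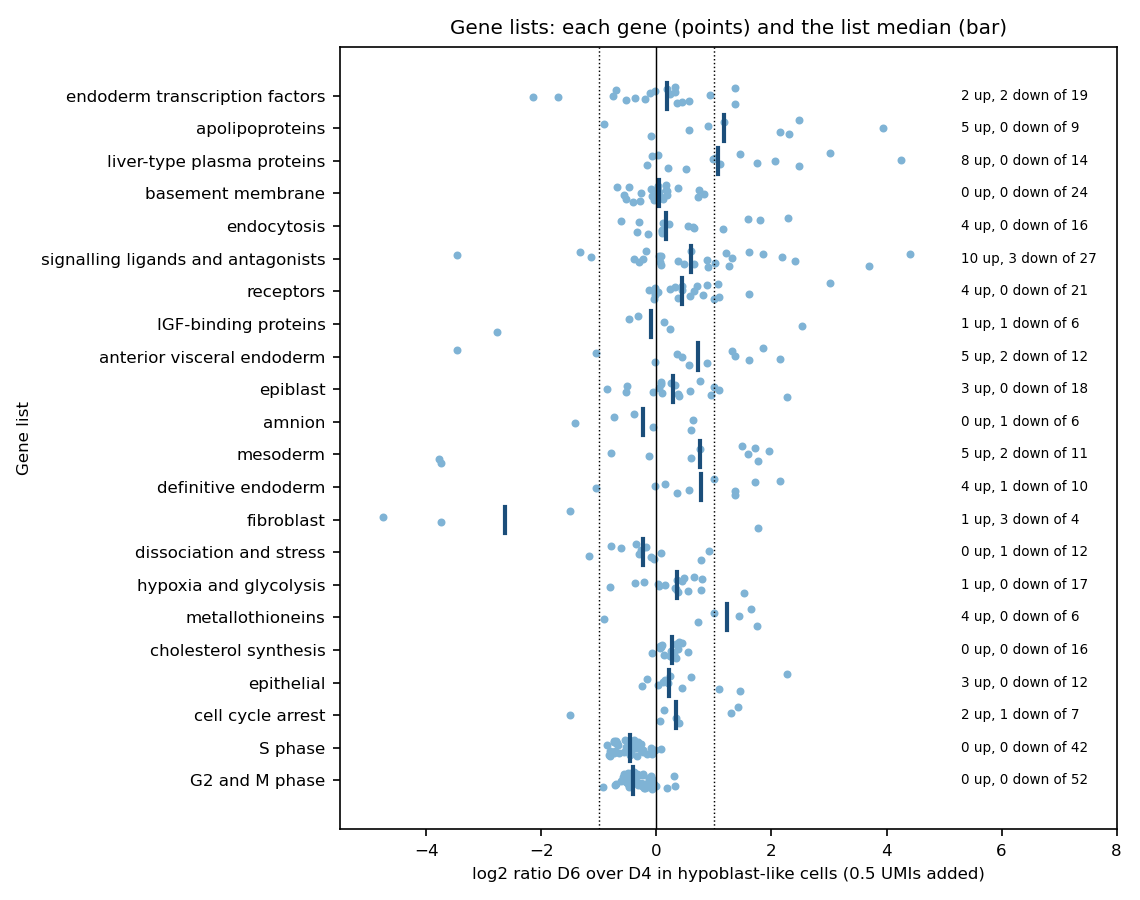
Log2 ratio of D6 over D4 in hypoblast-like members for genes (points) with at least 10 UMIs over both days, by gene list. The trophoblast list and that of blood and endothelium are not drawn. The list median is a bar, the number of genes past 2-fold is at the right, and dotted lines mark 2-fold. The apolipoprotein median lies at 1.17 and the basement membrane median at 0.04, while the cell cycle lists lie left of 0, at −0.46 and −0.40.

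Secreted signals and antagonists moved in both directions. Of the 27 measured, 10 were higher at D6 and 3 lower, with a median log2 ratio of 0.60, and without the 31 cells 2 were lower. WNT5A, at 19 UMIs in the other D4 members, then crossed the line from −1.13 to −0.94. GDF3, a TGF-beta family ligand related to NODAL, was at 10.8 CPM in D4 members and 229 CPM in D6 members, a log2 ratio of 4.40 [4.21, 4.60]. In epiblast-like cells GDF3 was at 19.6 and 18.1 CPM. At D4 its level was therefore lower in members than in epiblast-like cells, and at D6 it was 12.6-fold higher. RSPO3, which amplifies WNT signalling, was at 71.6 and 382 CPM, 2.41 [2.33, 2.49], and IHH, a hedgehog ligand of visceral endoderm, at 30.3 and 73.0 CPM. NODAL itself was at 23.6 and 54.6 CPM in members, 1.21 [1.05, 1.37], or 0.59 with the FN1, SOX2 and POU5F1 limits alone, and at 6.80 and 3.31 CPM in epiblast-like cells. FST, an antagonist of activin, was at 346 and 646 CPM and FGF17 at 227 and 463 CPM, log2 ratios of 0.90 and 1.03, and FGF17 had 0.61 under those limits. BMP2 was at 207 and 182 CPM, whereas BMP7 was at 67.5 and 26.9 CPM, a log2 ratio of −1.33 [−1.50, −1.17]. In epiblast-like cells BMP7 was at 8.58 and 16.2 CPM.

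The LEFTY genes, which encode inhibitors of NODAL and lie side by side on chromosome 1, differed in opposite ways in members. LEFTY2 was at 129 CPM at D4 and 11.6 CPM at D6, a log2 ratio of −3.48 [−3.71, −3.25], and at 37.9 and 2.93 CPM in epiblast-like cells. LEFTY1 was at 49.7 and 180 CPM in members, a log2 ratio of 1.86 [1.75, 1.96], and at 105 and 9.84 CPM in epiblast-like cells. The 2 genes are close copies of each other, and reads could have been split between them. The CER1 limit bears on LEFTY1, since cells that it set aside had 746 CPM of LEFTY1 at D4 and 660 CPM at D6. With the FN1, SOX2 and POU5F1 limits alone, the log2 ratio of LEFTY1 was 0.16 and that of LEFTY2 −4.11. The higher level of LEFTY1 at D6 thus depended on the choice of members. Of the 12 genes on a list of the anterior visceral endoderm, the signalling centre of the hypoblast, 5 were higher and 2 lower, and DKK1, a WNT antagonist, was at 20.1 and 50.1 CPM. With the FN1, SOX2 and POU5F1 limits alone, 2 were higher and 2 lower. LEFTY1, GSC, FZD5 and LHX1 were then under 2-fold, with log2 ratios of 0.16, 0.85, 0.95 and 0.99, where GSC had 2.14 in members.

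Among receptors, 4 of 21 were higher at D6 and none lower, with a median log2 ratio of 0.44. FZD5 (chr2:207762598-207769906), a receptor for WNT, was the most abundant of them at D6, at 242 CPM in D4 members and 738 CPM in D6 members, a log2 ratio of 1.61 [1.56, 1.66], or 0.95 with the FN1, SOX2 and POU5F1 limits alone. In epiblast-like cells FZD5 was at 40.7 and 41.7 CPM. PDGFRA, a receptor of the primitive endoderm, was at 8.04 and 65.3 CPM, 3.02 [2.79, 3.26], and after thinning it was seen in 2.62% of D4 members and 17.4% of D6 members, against 2.23% and 1.74% of epiblast-like cells. At D4 the share of members with PDGFRA was thus near that of epiblast-like cells. FGFR1 was at 254 and 464 CPM, 0.87 [0.82, 0.92]. The others that were higher were IL6ST and KDR, the second at 1.30 and 2.75 CPM. With the FN1, SOX2 and POU5F1 limits alone, 3 of the 21 were higher, PDGFRA, FGFR1 and IL6ST. KDR then had a log2 ratio of 0.74 and FGFR1 1.04.

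Cystatins formed an abundant pair that the lists did not hold. CST1, a secreted inhibitor of cysteine proteases, was at 2144 CPM in D4 members and 6653 CPM in D6 members, a log2 ratio of 1.63 [1.62, 1.65], and at 49.95 and 56.7 CPM in epiblast-like cells. CST2 was at 74.98 and 274 CPM, 1.87 [1.79, 1.95]. The 2 genes are near copies on chromosome 20 and their reads may not be fully separable. S100A10, a partner of annexin, was at 3854 and 5817 CPM. The nuclear RNA MALAT1 was at 4468 and 6464 CPM in members and at 2833 and 4146 CPM in epiblast-like cells, so it differed by about as much in both lineages, 0.53 and 0.55 on the log2 scale.

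None of the 42 genes of S phase and none of the 52 genes of G2 and M phase passed 2-fold between the days in members, with median log2 ratios of D6 over D4 of −0.46 and −0.40. In epiblast-like cells the medians were −0.08 and 0.01. Summed S phase genes went from 3490 CPM in D4 members to 2584 CPM in D6 members, and from 4721 to 4407 CPM in epiblast-like cells. After thinning, the median cell held 10 UMIs of S phase genes at D4 and 6 at D6 in members, and 16 and 15 in epiblast-like cells. CDKN1C, an inhibitor of cyclin-dependent kinases, was at 144 and 353 CPM in members, a log2 ratio of 1.30 [1.23, 1.36], and at 26.7 and 29.2 CPM in epiblast-like cells. CDKN1A was at 4.91 and 13.2 CPM, and CDKN2A at 12.3 and 4.30 CPM. Of the 7 genes on the list of cell cycle arrest, 2 were higher and 1 lower.

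Of 10 genes of definitive endoderm, a list that shares factors with the hypoblast, 4 were higher and 1 lower, with a median log2 ratio of 0.78. Its chemokine receptor CXCR4 was at 115 and 229 CPM. With the FN1, SOX2 and POU5F1 limits alone, 2 of the 10 were higher and 1 lower. None of the 16 genes of cholesterol synthesis differed by 2-fold, with a median of 0.27, and 1 of 17 genes of hypoxia and glycolysis did, the oxygen sensor EGLN3, at 87.2 and 250 CPM. Metallothioneins, which bind zinc and copper, summed to 109 CPM at D4 and 231 CPM at D6, and 4 of the 6 measured were higher, with a median log2 ratio of 1.22. Without the 31 cells MT1F went from 1.01 to 0.996 on that scale, and MT1M, at 12 UMIs at D4 and 20 at D6, from −0.90 to 1.36. In epiblast-like cells they summed to 659 and 566 CPM. The 12 dissociation and stress genes had a median of −0.23 with none higher and 1 lower. Of 12 epithelial genes 3 were higher and none lower, among them VIL1, which encodes the microvillus protein villin, at 20.2 and 42.8 CPM. Of the 18 epiblast genes 3 were higher and none lower, among them the zinc finger factor ZIC2, at 82.3 and 175 CPM. Of 11 mesoderm genes 5 were higher and 2 lower, with MIXL1 at 22.8 and 74.5 CPM and TWIST1 at 24.8 and 75.2 CPM, while MSGN1 was at 0 on both days. COL3A1 was among the lower ones, with all of its 159 UMIs at D4 in the 31 cells and 7 UMIs at D6, and without those cells 5 of 10 mesoderm genes were higher and 1 lower. Of 6 measured amnion genes none was higher and 1 was lower, and of 6 IGF-binding protein genes 1 was higher, IGFBP5, and 1 lower, IGFBP7, whose log2 ratio of −2.80 was −0.10 without the 31 cells. Of the 3 measured trophoblast genes and the 5 of blood and endothelium, 1 and 3 were higher and none lower.

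Among genes at 50 CPM or more on the higher day, those that were lower at D6 by the widest ratio included S100A6, LEFTY2, FABP7, TNC, GAL, SHISAL2B, BMP7 and GPC3. S100A6 was at 68.0 CPM at D4 and had 1 UMI at D6, a log2 ratio of −9.91 [−15.22, −7.43]. The 31 cells held 1471 of its 1522 UMIs at D4. Without those cells its log2 ratio was −5.03 and that of COL1A1, −1.51 with them, was 0.02. The fibroblast list went with those cells, at 64.4 CPM over D4 members and 16.8 CPM at D6, and its median of −2.63 over 4 measured genes, 3 of them lower, became 0.09 without them. FABP7, a fatty acid binding protein, was at 76.6 and 10.4 CPM in members, −2.89 [−3.14, −2.64], and at 13.7 and 9.46 CPM in epiblast-like cells. TNC, which encodes the matrix protein tenascin C, was lower at D6 in both lineages, with log2 ratios of −2.14 in members and −2.31 in epiblast-like cells. GAL, the neuropeptide galanin, was likewise lower in both, at −1.47 and −1.55. GPC3, a cell surface proteoglycan, was at 146 and 62.4 CPM in members and at 57.8 and 94.1 CPM in epiblast-like cells, log2 ratios of −1.23 and 0.70.

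At D6, APOA1 and CST1 had the highest variance over mean among members, whereas at D4 other genes lay above them. After thinning, the median D4 member had 4 UMIs of APOA1 (quartiles 1 and 7) and the median D6 member 25 (quartiles 13 and 44). The variance of APOA1 over its mean was 7.25 at D4 and 20.4 at D6, at means of 5.57 and 31.8 UMIs. The median over genes was 1.05 on both days. This measure can grow with the mean, so the larger value does not show that members were more uneven at D6. CST1 had a median of 5.5 UMIs at D4 and 19 at D6, with variance over mean of 6.52 and 14.7 at means of 7.21 and 22.6. APOE was more even than APOA1, with medians of 18 and 28 UMIs. Its variance over mean was 3.80 and 5.12 at means of 19.4 and 29.3. At D4 the highest variance over mean was that of S100A6, 37.5, and COL1A1, 30.3, of which the 31 cells held 1471 and 595 UMIs, and LGALS1, S100A4 and MALAT1, at 8.14, 7.78 and 7.68, were also above APOA1. Without those cells S100A6 was at 1.35, COL1A1 at 0.979, LGALS1 at 1.56 and S100A4 at 1.40, and of the genes ranked only MALAT1, at 7.59, lay above APOA1, at 7.20. GDF3 was seen after thinning in 3.00% of D4 members and 37.9% of D6 members, RSPO3 in 12.9% and 52.2%, and FZD5 in 41.9% and 71.6%. In epiblast-like cells GDF3 was seen in 6.57% and 6.13%. GDF3, RSPO3 and FZD5 were therefore seen in a larger share of members at D6.

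**Figure D4:**
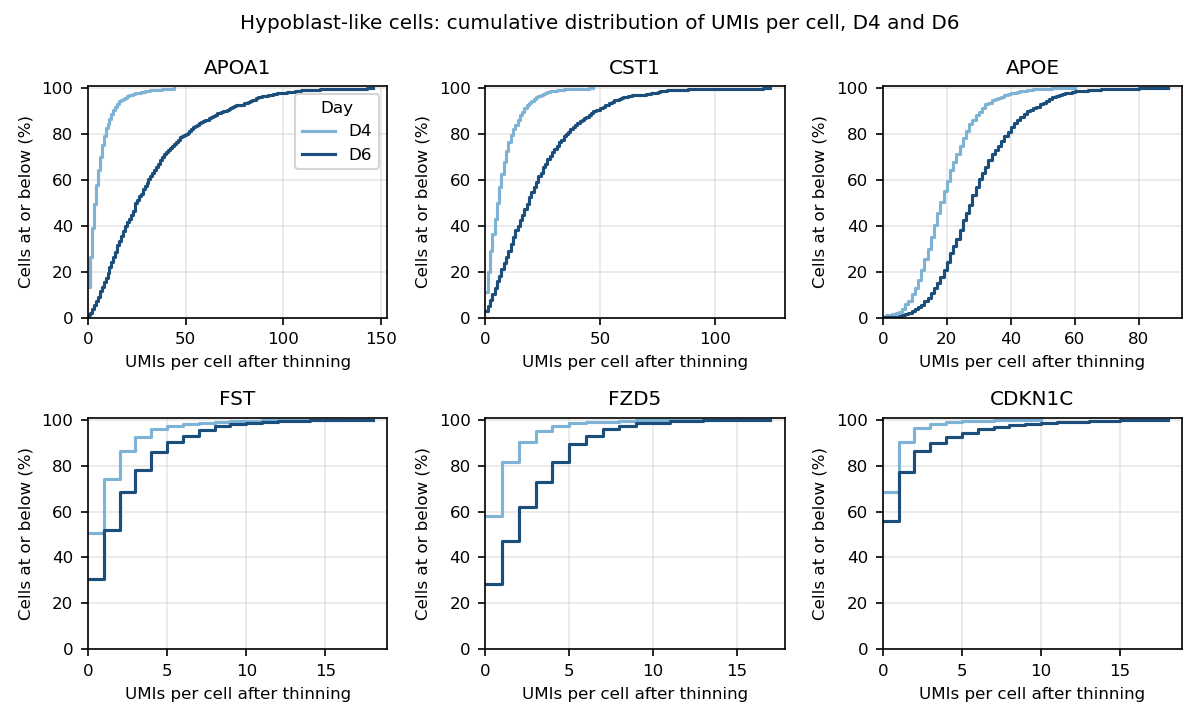
Cumulative share of hypoblast-like members, in percent, by the number of UMIs of 6 genes after each cell was thinned to 3430 UMIs, at D4 (light) and D6 (dark). The whole curve of APOA1 lies to the right at D6, with a median of 25 UMIs against 4, and that of CST1 likewise, with 19 against 5.5.

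Correlations over cells, which share a library and thinned depth, are given as descriptions. APOA1 and APOE had Spearman's rho of 0.39 over the 2064 D4 members and 0.35 over the 1266 D6 members. APOA1 and the summed cell cycle genes had −0.13 and −0.23. Among 20 genes that were higher at D6 or led the members, 164 of the 190 pairs were under 0.2 in size at D6. The highest was GDF3 with FOXQ1 at 0.37, about equal to APOA1 with RSPO3, and the lowest was FGB with CST1 at −0.24. FGB and FZD5 had −0.23. In such sparse counts these values are weak.

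Members were compared with cells set aside by the limits on ISL1, CER1, and APOA4 with LCN15, and those set aside by NPPB were not compared. The compared cells met the FN1, SOX2 and POU5F1 limits, and 193 of them at D4 and 130 at D6 fell in more than 1 of the ISL1, CER1 and APOA4 with LCN15 groups. Those with APOA4 or LCN15 at D6 had 14728 CPM of APOA1, against 9296 in members, a log2 ratio of members over them of −0.66 [−0.67, −0.65]. AFP was at 26.2 CPM in them and 2.68 CPM in members, −3.29 [−3.80, −2.81], and APOC3 at 31.1 against 8.53 CPM. APOB, at 98.2 CPM, was also higher in them than in members, while GATA4 and GATA6 had log2 ratios of members over them of 0.04 and −0.08. Those with CER1 had more LEFTY1 and LEFTY2 than members on both days, with 1242 CPM of LEFTY2 at D4 against 129, and less GATA3, at 150 and 138 CPM. At D6 they also had 56.5 CPM of HAND1, a factor of extra-embryonic mesoderm, against 8.18 CPM in members. Those with ISL1 had 49.7 CPM of TTR at D6, against 8.32 CPM in members, and 25.7 CPM of HAND1. FOXA2 lay between 123 and 137 CPM in members and all 3 groups at D4, and between 130 and 157 CPM at D6.

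**Figure D5:**
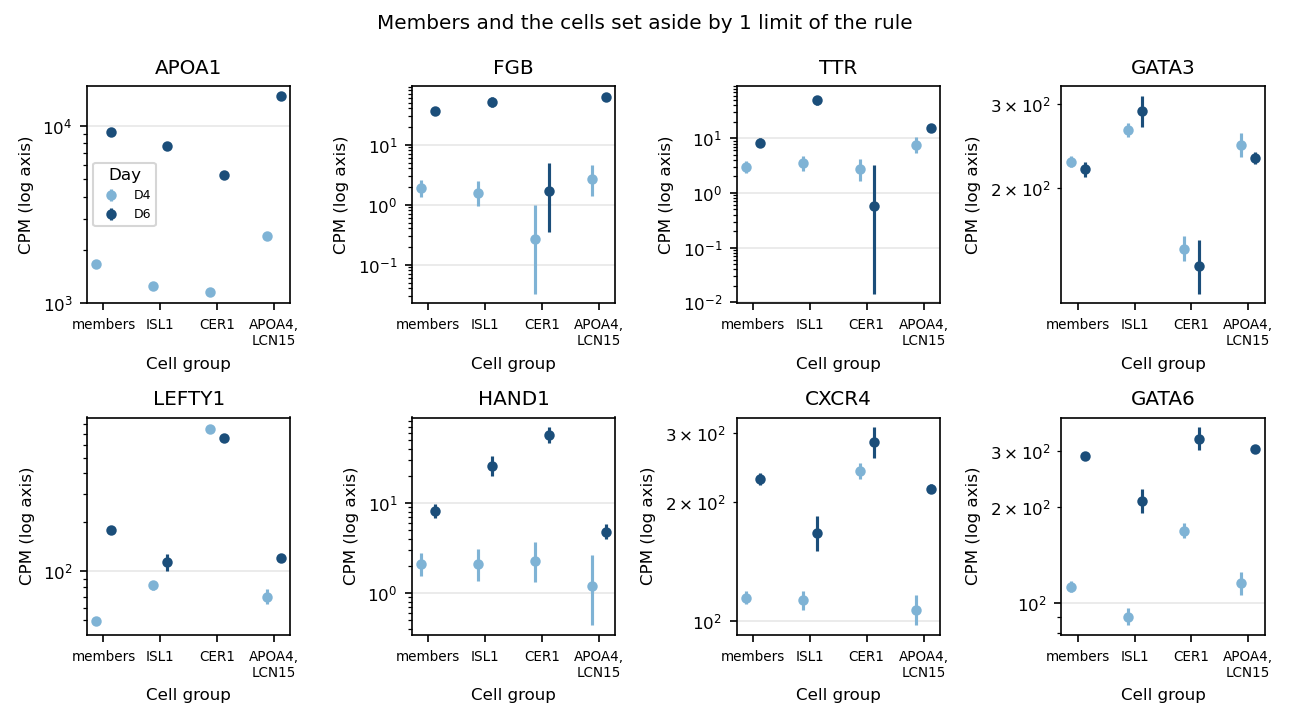
Level of 8 genes, in CPM on a log axis, in hypoblast-like members and in the cells set aside by the limits on ISL1, CER1, and APOA4 with LCN15, at D4 (light) and D6 (dark), with exact Poisson intervals. At D6 APOA1 was at 9296 CPM in members and 14728 CPM in the APOA4 and LCN15 group, and LEFTY1 at 660 CPM in the CER1 group against 180 CPM in members.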

How the data were processed

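With Cell Ranger 6.0.1 (per the file headers) and hg38, the authors deposited raw UMI counts for 36601 genes in the called cells of 2 libraries, 1 for each day. Seurat 4.0.1 and R 4.0.3 are named in the submitters' notes and were not used here. The 7 bisulfite libraries were not analysed here.

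Members and gene lists were chosen with earlier results of these data known. Cells were filtered and grouped by raw counts, and UMIs were summed over cells per group and library. Intervals were exact Poisson for levels, exact binomial (Clopper-Pearson) for shares and exact conditional binomial for ratios. A difference of 2 log2 ratios had a normal interval from Poisson variances. All are 95% intervals. A level of 0 was bounded by 3 counts per group. Genes were compared at 10 CPM or more in the higher group, and called at 2-fold. List medians used genes with at least 10 UMIs over both groups, with 0.5 UMIs added. Thinning drew UMIs without replacement with a fixed seed. The genes named were the markers, up to 6 genes by level from each of 24 lists, and genes leading fixed rankings: 15 higher and 15 lower at D6 at 50 CPM or more, 12 over epiblast-like cells, 10 most abundant, 12 most variable, and 8 by difference between lineages. Further list genes were named after their values were seen, as were the cells with S100A6, whose removal was added as an alternative. No doublet caller was run. The SOX2 and POU5F1 limits can remove barcodes that mix the lineages, but the share of mixed barcodes left among members was not estimated. Leaving out cells above 20000 UMIs was an alternative. The ratios and their intervals were tested on simulated Poisson counts. Those counts held no variation between cells or libraries, so the test bears on counting error alone. Python 3.11.15, numpy 2.4.6, pandas 2.3.3, scipy 1.17.1 and matplotlib 3.10.9 were used.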

Additional observations from a re-analysis of the deposited data

Results flagged for a closer look

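LEFTY1 and NTS differed in opposite ways between D4 and D6 in hypoblast-like members and in epiblast-like cells of the same 2 libraries. With 1 library a day, the difference was not tested. LEFTY1 had a log2 ratio of D6 over D4 of 1.86 in members and −3.41 in epiblast-like cells, a difference of 5.27 [5.12, 5.42] with an interval that covers counting error only. Its ratio in members was 0.16 when the FN1, SOX2 and POU5F1 limits alone chose the cells. NTS, the gene of the neuropeptide neurotensin, was at 28.7 CPM in D4 members and 169 CPM in D6 members, and at 229 and 70.9 CPM in epiblast-like cells. Its log2 ratios were 2.55 and −1.69, a difference of 4.25 [4.11, 4.38]. After thinning, NTS was seen in 7.17% of D4 members and 28.1% of D6 members, and in 44.5% and 16.8% of epiblast-like cells. With the FN1, SOX2 and POU5F1 limits alone, its ratio in members was 3.03.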

How the results depend on the processing

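With 1 library for each day, no result has a replicate check, and D4 and D6 differ in library as well as in day. No paired analysis was possible because each day had 1 library and replicate numbers stood only on bisulfite samples, which were not analysed here. Depth limits genes of few UMIs, and a level of 0 allows up to 0.134 CPM in D4 members and 0.211 CPM in D6 members. The share of members at D4 and D6 was 20.1% and 13.4% when the rule followed thinning, 23.8% and 13.4% at 2 FN1 UMIs, 18.9% and 10.4% at 5 FN1 UMIs, 44.4% and 35.3% with the FN1, SOX2 and POU5F1 limits alone, 28.5% and 13.2% with 1 ISL1 UMI allowed, and 25.1% and 13.6% under 20000 UMIs. With mitochondrial UMIs at 5% or less, the D4 share was 23.8%. The log2 ratio of the D6 to the D4 share was −0.85, and −0.58 after thinning, −0.33 with those limits alone and −1.11 with 1 ISL1 UMI allowed. Of 118 counts of genes under alternatives, 96 stayed within 1.5 times. At 50 CPM, 85 genes were higher and 15 lower at D6 in members, 342 and 201 over epiblast-like cells at D4, 521 and 265 at D6, and 91 and 22 by difference between lineages. Without a filter on level, these were 3014 and 2079, 5192 and 4259, 4891 and 4989, and 4839 and 3836, and the added genes had few UMIs. When the rule followed thinning, 128 genes were lower at D6, and 354 and 273 were higher and lower by difference. Thinning alone gave 209 lower by difference, and a total without mitochondrial and ribosomal genes gave 112 and 248 lower. Of 963 values of named genes, 100 moved by more than their interval and 5 changed sign, and of 1048 list medians 144 moved and 5 changed sign. Of 697 values of genes past 2-fold, 676 were past it in size, and these included LUM at −1.14, on the other side of 0. LUM, at 1.81 in members, went to −0.88 after thinning, −1.14 when the rule followed thinning and −0.32 at 5 FN1 UMIs. Without the 31 cells with S100A6, an alternative chosen after seeing the data, COL1A1 went to 0.0189, COL1A2 to 0.0611, the fibroblast median to 0.0897 and its median over epiblast-like cells at D4 to −3.26. At D6 the latter went to 2.40 without a filter, and the median of blood and endothelium to −0.0274 after thinning and −0.60 when the rule followed thinning. The cause was not tested beyond what each alternative leaves out.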
